A study of Homo sapiens with 12 samples.

Results

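The proteasome subunit genes are the human genes whose names begin with PSM, followed by one letter from A to G and a number, and 48 of the 60645 gene names in the count tables met that rule in all 12 libraries. They comprise 14 genes of the constitutive core particle (7 alpha, PSMA1 to PSMA7, and 7 beta, PSMB1 to PSMB7), 17 of the regulatory particle (6 ATPases, named PSMC, and 11 non-ATPase subunits, named PSMD), 5 immune or tissue-specific core genes, 3 chaperones of the regulatory particle, 4 chaperones of the core and 5 activators or inhibitors. Of these, 45 were among the 20377 genes that passed the filter on low counts. The other 3 (PSMA8, PSMB8 and PSMB11) were hardly counted in any library and were not tested.

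The proteasome is the protease that degrades proteins tagged with ubiquitin. Its barrel-shaped core carries the proteolytic sites on the inner faces of beta subunits, behind gates formed by the alpha subunits. The regulatory particle sits on the ends of the barrel, binds ubiquitin chains, removes them and feeds the unfolded protein into the core with a ring of ATPases. Because the subunits assemble in fixed proportions, cells are known to adjust the genes of both particles together, in part through the transcription factor NFE2L1, which binds antioxidant response elements with small MAF proteins.

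PolyA RNA was sequenced from 1 ARID1A-knockout line (named 12KO) of HEK-293T, an established human embryonic kidney cell line. ARID1A is a subunit of the SWI/SNF chromatin remodeller, and all 6 groups carry the knockout. The knockout cells had been given an empty vector (called no ARID1A below), full-length ARID1A (WT) or ARID1A without the stretch called IDR1b (ΔIDR1b), together with a second empty vector (EV) or EWS-FLI1 (EF), the fusion transcription factor of Ewing sarcoma. Transfection used 2 µg of the EWS-FLI1 plasmid, followed by 48 h of growth. The labels name the ARID1A constructs as overexpressed, and do not give the share of cells that took up a plasmid. Each group had 2 libraries, which the labels number as repeats without naming separate cultures, so p-values measure the spread between these libraries, which may be technical. The design text states the aim as the role of the ARID1A segment IDR1b in gene regulation by EWS-FLI1.

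The libraries held between 11702251 and 14445379 counts, and the PSM genes together took between 0.411 and 0.462% of them. Levels below are CPM, counts relative to library size, with sizes scaled by TMM (edgeR's trimmed mean of log ratios). ARID1A, the targeted gene, still read 147 to 165 CPM in the no-ARID1A libraries, against 1843 to 2291 CPM with WT and 2608 to 2878 CPM with ΔIDR1b. The ΔIDR1b cells thus carried more ARID1A RNA than the WT cells (log2 fold change 0.44 with EV, edgeR adjusted p = 0.000691, and 0.34 with EF, adjusted p = 0.00973), so the lack of IDR1b and a higher level of the construct cannot be told apart below. FLI1 lay between 1688 and 3675 CPM with EF and at most 0.146 CPM with EV. With EF its group means were 1759 CPM in no ARID1A, 3568 CPM with WT and 1897 CPM with ΔIDR1b. In contrasts and interactions that include WT with EF, the ARID1A state and the FLI1 level thus cannot be told apart. The cells expressed the epithelial keratins KRT8 (230 to 402 CPM) and KRT18 (53.8 to 84.6 CPM) and the kidney lineage factor PAX2 (7.86 to 11.54 CPM), whereas NEFM, also listed for this line, had 2 counts in all. The leukocyte markers PTPRC and CD3E had 3 and 2 counts over the 12 libraries, and the endothelial markers PECAM1 and CDH5 had 13 and 21. Of the liver markers, ALB had 92 counts over all libraries, and APOA1, with 66, had 0 in both ΔIDR1b libraries with EV and 0 and 3 in those with EF, against 2 to 16 elsewhere; the part of this in the results below was not tested. In bulk RNA, fewer cells of a kind and less RNA per cell cannot be told apart.

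The bases counted for a subunit gene are not always those of its coding mRNA. For this reason 3 splice junctions are shown first, from genes with large falls below. Fragments were assigned to every annotated exon of a gene name, retained introns included, and a fragment overlapping the exons of another gene name was not counted. The sequences below run 5′ to 3′ on the gene's strand (GRCh38). Capitals mark the last 40 bases of a coding exon, and lower-case letters mark the next 80 bases, which are intron in the coding transcript but lie in an exon of a non-coding transcript model of the same gene and were therefore counted.
PSMA2, chr7:42921778-42921897, minus strand: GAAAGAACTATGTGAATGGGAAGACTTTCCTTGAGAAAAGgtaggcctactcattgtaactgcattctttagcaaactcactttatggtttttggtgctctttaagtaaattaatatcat
PSMA6, chr14:35313020-35313139, plus strand: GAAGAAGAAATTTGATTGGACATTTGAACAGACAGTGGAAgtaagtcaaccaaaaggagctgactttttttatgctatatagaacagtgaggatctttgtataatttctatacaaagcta
PSMC6, chr14:52718103-52718222, plus strand: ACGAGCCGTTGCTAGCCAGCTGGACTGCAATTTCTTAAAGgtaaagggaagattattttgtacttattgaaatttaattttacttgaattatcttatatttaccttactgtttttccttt
In PSMA2 and PSMA6, all 40 capital letters also belong to exons of a second annotated gene on the same strand that reads through the subunit gene (ENSG00000256646 over PSMA2 and ENSG00000258790 over PSMA6). There the exon bases could give no count to either gene, while the intron bases in lower case could. In PSMC6 none of the 40 exon bases is shared, so exon and intron were both counted.

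Over whole genes, 100% of the coding bases of PSMA2 were shared with another gene, 88.6% of those of PSMA1 (with ENSG00000256206), 70.4% of PSMA6, 68.3% of PSMD9 and 60% of PSMB10. These are the 5 members with more than 50% of their coding bases shared. PSMC1 came next at 47.7%, and 11 members had any such overlap. What was left to count for PSMA2 was 5890 unshared bases, of which 0.0679% lie in exons of a coding transcript (GENCODE release 29 models on the same build). The same share was 9.31% for PSMA6, 53.4% for PSMA1 and 27.7% for PSMD9. The bases that could be counted for PSMA2 thus lie nearly all, and those for PSMA6 mostly, outside exons of a coding transcript. A share of bases is not a share of counts, and the part of the subunits' mRNA in these counts was not tested.

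Levels were compared between genes per kilobase of the merged exon length given in the tables, as means over the 12 libraries. PSMB4, a beta subunit of the core, had the highest level at 109 CPM per kb (range 87.1 to 132), followed by the alpha subunit PSMA7 at 102 CPM per kb (83.8 to 133), and the ranges of the pair overlapped. Among regulatory genes the ubiquitin receptor PSMD4 led with 56.7 CPM per kb (49.6 to 63.6), next to the ATPase PSMC3 with 56.2 CPM per kb (49.3 to 66.9). The scaffold subunit PSMD1 was the lowest regulatory gene at 7.08 CPM per kb (5.68 to 8.59). Of its merged length of 15795 bases, 78.9% lies outside exons of coding transcripts, and its longest coding transcript has 3326 bases. The order of genes and the ratio of medians given here thus describe levels per merged length. Levels per length of coding transcript were not compared. In the core, PSMA6 at 2.01 and PSMA2 at 2.24 CPM per kb were the lowest, below PSMA1 at 8.77 CPM per kb, and these are the 3 core genes with mostly shared coding bases. The median core gene stood at 43.7 CPM per kb and the median regulatory gene at 20.8, a ratio of 2.1. The ratio was 1.72 when the counts were divided by unshared bases, and 2.71 without the mostly shared genes.

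**Figure D1:**
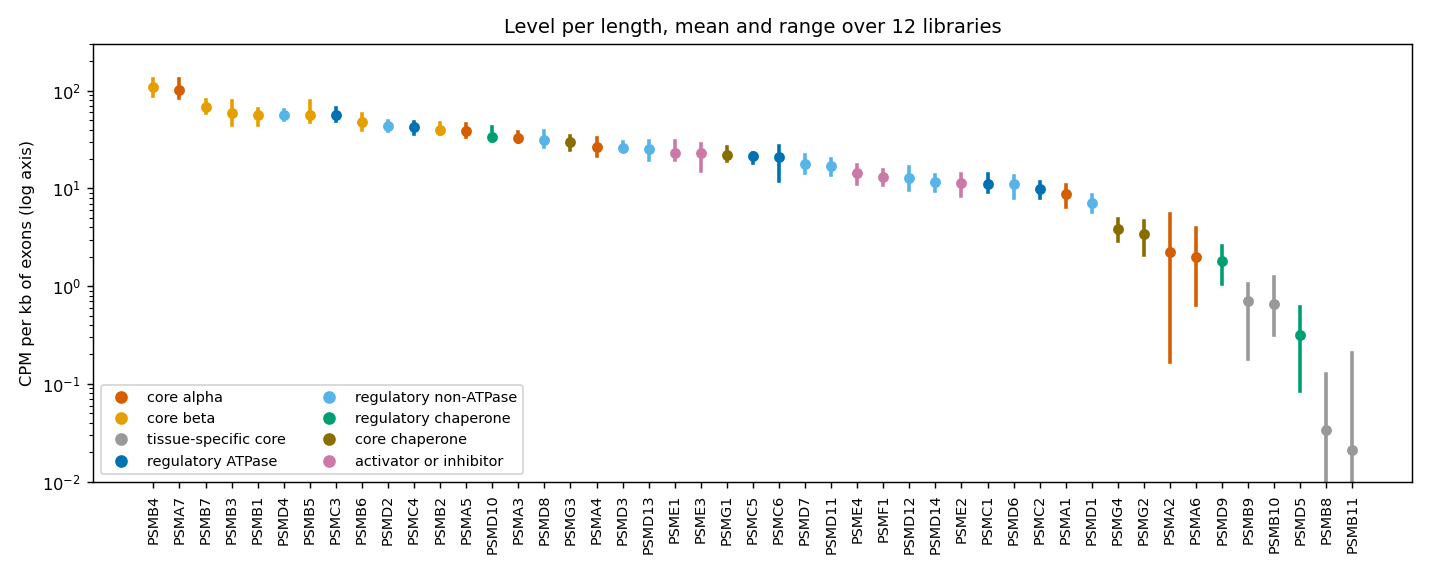
Level of each PSM gene in CPM per kb of exons (log axis), with points for the mean and lines for the range over 12 libraries, coloured by class. Lines that reach the lower edge include a library at 0, and PSMA8, listed at 0 in all libraries, is not drawn. The beta subunit PSMB4 leads, and PSMA2 and PSMA6 sit far below the other core genes with wide ranges.

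The immune forms of the catalytic beta subunits, which replace the constitutive ones after interferon, were near the limit of detection. PSMB8 had 19 counts over the 12 libraries and never more than 0.439 CPM in a library, where 3 counts (the limit that a count of 0 allows) correspond to 0.208 to 0.256 CPM. PSMB9 read 1.93 and 0.598 CPM in no ARID1A, 3.497 and 2.54 with WT and 3.14 and 2.22 with ΔIDR1b, all with EV. With EF the PSMB9 libraries read 1.88 and 2.68, 2.86 and 3.11, and 2.05 and 1.60 CPM in the same order. PSMB9 was higher in both WT libraries than in both no-ARID1A libraries, but the log2 fold change of 1.25 did not pass the test (adjusted p = 0.0726 with EV), nor did any other contrast of it. PSMB10 lay between 0.521 and 2.02 CPM, with both extremes in the WT group with EV. The thymus-specific PSMB11 had 6 counts in all, and the testis-specific alpha subunit PSMA8 had none.

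PSME1 and PSME2 encode the subunits of the interferon-inducible activator ring. PSME1 read 39.5 and 38.4 CPM in no ARID1A, 54.3 and 43.8 with WT and 34.4 and 35.5 with ΔIDR1b with EV, and 38.6 and 36.9, 48.9 and 46.9, and 36.7 and 40.5 CPM with EF. The WT libraries were the highest of each vector, and PSME1 fell with ΔIDR1b against WT with EV (log2 fold change -0.49 ± 0.13 SE, edgeR adjusted p = 0.00554), while the value with EF did not pass (-0.31, adjusted p = 0.092). The call with EV was lost without the first WT library and without the first ΔIDR1b library, with adjusted p up to 0.174. PSME2 read 49.4 and 43.9, 49.7 and 40.04, and 30.3 and 31.7 CPM in no ARID1A, WT and ΔIDR1b with EV. With EF the PSME2 values were 42.7 and 43.5, 47.7 and 41.8, and 34.7 and 32.4 CPM. All 4 ΔIDR1b libraries lay below all others, and PSME2 fell against no ARID1A (-0.59 ± 0.13, adjusted p = 0.000841) and against WT (-0.53 ± 0.13, adjusted p = 0.00355) with EV. Without the first WT library with EV the contrast with WT was -0.37 (adjusted p = 0.131), and without the first ΔIDR1b library it was -0.50 (adjusted p = 0.0506). Among genes of antigen processing, the MHC class I light chain B2M fell with ΔIDR1b against no ARID1A with EV (-0.33, adjusted p = 0.0102) and against WT (-0.50, adjusted p = 0.000362).

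The first question on the 6 groups is what WT ARID1A changed in the knockout line. With EV, 9 members were higher and 2 lower with WT than without ARID1A, at an edgeR adjusted p under 0.05 over all 20377 genes. That is 11 of 45 tested members beside a background of 11.7% of all genes (6.50% higher and 5.19% lower). The median log2 fold change was 0.17 over the members and -0.01 over all genes. In the core, the catalytic beta subunits PSMB5 (0.46, adjusted p = 0.0114) and PSMB6 (0.35, adjusted p = 0.0385) and the alpha subunit PSMA4 (0.44, adjusted p = 0.00515) rose. In the regulatory particle the ATPase PSMC1 (0.46), the lid subunit PSMD12 (0.46), PSMD7 (0.36) and the deubiquitinase PSMD14 (0.35) rose, with adjusted p from 0.00767 to 0.0486. The nuclear activator PSME3 (0.42, adjusted p = 0.00703) and the activator PSME4 (0.41, adjusted p = 0.00904) rose too. The 2 that fell were PSMA2 (-1.67) and PSMA6 (-0.90). The count rests on single libraries: it was 6 without the first no-ARID1A library, 1 without the second and 2 without the first WT library. The calls of PSMB6, PSMD7 and PSMD14 were lost under 10, 13 and 10 of 22 alternatives (other scalings, filters and fits, or 1 library left out).

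With EF, 6 members were higher and 4 lower with WT, 10 of 45 beside a background of 18.1% (9.72% higher, 8.36% lower). Among them were 4 that also rose with EV, PSMA4, PSMD7, PSME3 and PSME4, or 44.4% of the rises with EV and 66.7% of those with EF. The matching shares over all genes are not given here. PSMA2 and PSMA6 fell in both. PSMA5 (0.38) and PSMD1 (0.47) rose, and PSMC6 (-0.32, adjusted p = 0.0425) and the scarce chaperone gene PSMD5 (-1.73, adjusted p = 0.0417) fell, where the test passed only with EF. The calls of PSMC6 and PSMD5 were lost under 10 and 5 of the 22 alternatives, among them a fit to only the libraries compared, with adjusted p up to 0.479 and 0.24. Without the first no-ARID1A library of this vector 6 members were called. With the replicate number as a block within each vector 17 were called (11 higher and 6 lower), and 16 with the numbers crossed. No member had a called difference between WT and no ARID1A in the effect of EWS-FLI1.

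The next question is what changed when the ARID1A construct lacked IDR1b. Against no ARID1A with EV, 4 members were higher and 14 lower with ΔIDR1b, 18 of 45 beside a background of 33.3% of all genes (16.4% higher and 16.8% lower). The median log2 fold change was -0.14 over the members and 0.00 over all genes. With EF, 5 were higher and 13 lower, beside a background of 35.9% (18.1% higher and 17.9% lower), and the median was -0.07 against 0.02. The vectors shared 4 rises (PSMD1, PSMD12, PSME3 and PSME4, 100% of those with EV and 80% of those with EF) and 12 falls (85.7% and 92.3%). The matching shares over all genes are not given here, so whether this overlap is particular to the members was not tested. No member was called in opposite directions.

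Against WT, ΔIDR1b gave 21 lower members and 0 higher with EV (26 had an unadjusted p under 0.05 in either direction), beside a background of 24.5% (11.1% higher and 13.4% lower). Of the 45 tested members, 40 had a negative log2 fold change, and the median was -0.24 against 0.01 over all genes. With EF, 1 member was higher and 12 lower beside a background of 18.6% (8.48% higher, 10.1% lower), with 41 negative and a median of -0.20 against 0.01. All 12 of those falls were among the 21 with EV, and the matching overlap over all genes is not given here. The count of 21 was 9 without the first WT library and 11 without either ΔIDR1b library, and the count of 13 with EF was 5 without the first and 8 without the second ΔIDR1b library. That count was 4 in a fit to only the libraries compared, and 22 with the length trend removed and the replicate number as a block within each vector. Its 1 rise, PSMD12, was lost under 16 of the 22 alternatives. The contrasts within a vector share libraries: each state enters 2 of them. Of the 45 tested members, 15 were called in none of the 6 contrasts between states. The matching share of all genes is not given here, so this count only describes the members.

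**Figure D2:**
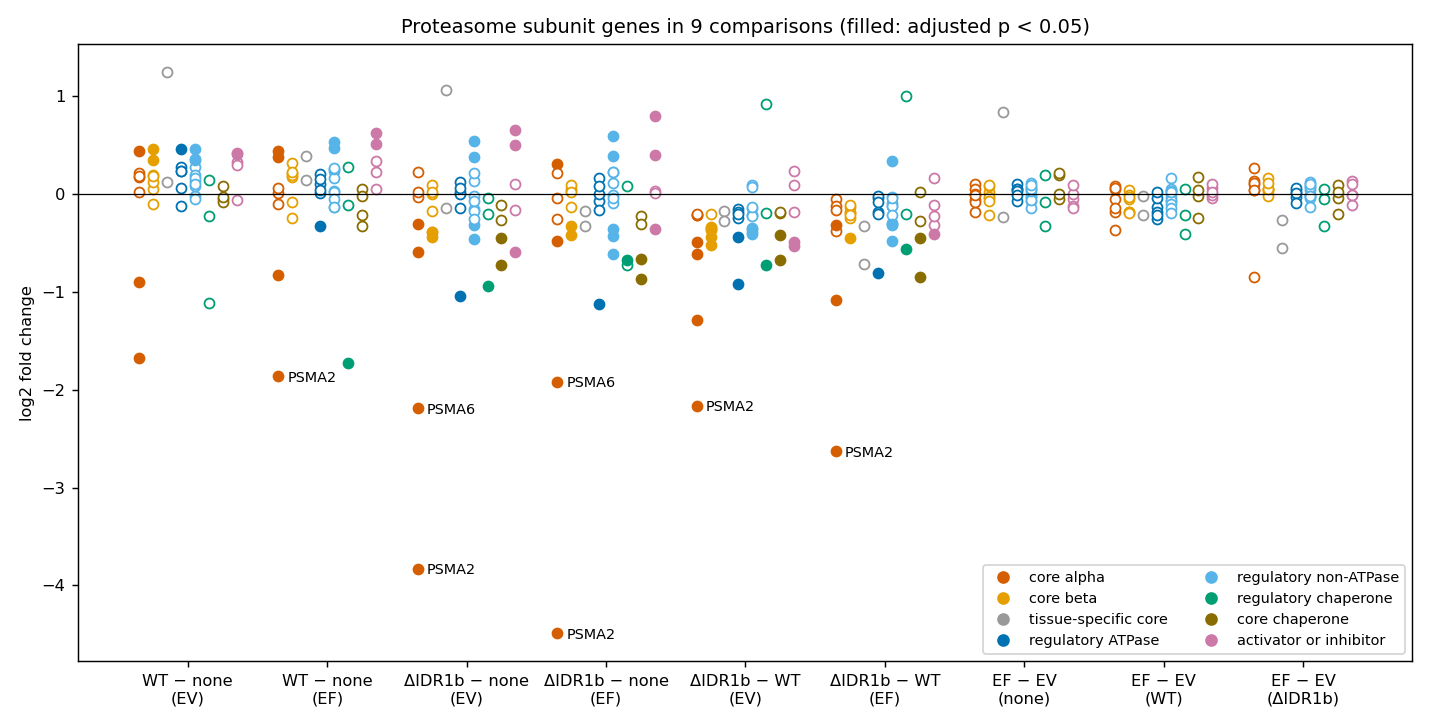
Log2 fold change of the 45 tested PSM genes in 9 comparisons, with points coloured by class and filled at an adjusted p under 0.05 (none, no ARID1A). Most points lie within 1 log2 unit of 0, PSMA2 and PSMA6 lie far below, and no point is filled in the 3 comparisons of EF with EV.

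Among the alpha subunits of the core, PSMA2 had the largest fall. Its libraries read 42.1 and 46.1 CPM in no ARID1A, 12.7 and 15.02 with WT and 1.39 and 4.79 with ΔIDR1b (EV), and 41.4 and 36.4, 14.6 and 6.82, and 1.91 and 1.53 CPM with EF. The 3 states did not overlap within a vector. PSMA2 was 14.2-fold lower with ΔIDR1b than in the cells lacking ARID1A (-3.83 ± 0.29 on the log2 scale, adjusted p = 3.06e-12) and 4.46-fold lower than with WT (-2.16 ± 0.30, adjusted p = 3.41e-06), from 19 and 67 counts in the ΔIDR1b libraries. Without the first or the second of those libraries the log2 fold changes were -3.20 and -4.98 against no ARID1A, and -1.53 and -3.31 against WT. With EF the 2 log2 fold changes were -4.49 and -2.63. As shown above, the bases that could be counted for PSMA2 lie nearly all outside exons of a coding transcript.

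PSMA6 read 18.1 and 25.7, 9.15 and 14.3, and 5.41 and 4.22 CPM in no ARID1A, WT and ΔIDR1b with EV, and 22.4 and 21.3, 14.8 and 9.78, and 5.95 and 5.63 CPM with EF. The order of the states was the same as for PSMA2, again with no overlap, and PSMA6 was 4.55-fold lower with ΔIDR1b than without ARID1A (-2.19 ± 0.24, adjusted p = 8.52e-09). PSMA1 was lower with ΔIDR1b against no ARID1A (-0.59 ± 0.15, adjusted p = 0.00216) and WT (-0.61, adjusted p = 0.00242, but 0.0517 without the second WT library) with EV, and did not differ by the test between WT and no ARID1A. The last called alpha subunit in these contrasts was PSMA7, with -0.30 (adjusted p = 0.0259) against no ARID1A and -0.49 (adjusted p = 0.000799) against WT, lost under 5 and 1 of the 22 alternatives. PSMA3, PSMA4 and PSMA5 passed in neither with EV.

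The genomic neighbours of PSMA2 were read beside it. PSMA2 (chr7:42916828-42932185, minus strand) and MRPL32, a mitochondrial ribosomal protein gene that starts 191 bases from it on the other strand, face away from each other. MRPL32 read 86.0 and 83.6 CPM in no ARID1A, 75.1 and 63.2 with WT and 44.7 and 41.8 with ΔIDR1b (EV), and 92.2 and 92.6, 72.4 and 58.1, and 42.2 and 43.6 CPM with EF. It fell with ΔIDR1b against no ARID1A (-0.97 ± 0.12, adjusted p = 1.52e-07) and against WT (-0.68, adjusted p = 0.000115) with EV. MRPL32 thus kept the order of the states seen for PSMA2, with a smaller range. ENSG00000256646, the gene that reads through PSMA2, had 4 counts in all, and ENSG00000258790 over PSMA6 had 18. COPB1, a coat protein gene beside PSMA1, rose with WT (0.43, adjusted p = 0.00456) and had 0.19 (adjusted p = 0.16) with ΔIDR1b against no ARID1A.

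The beta subunits moved less and more evenly. All 7 had a negative log2 fold change between ΔIDR1b and WT for both vectors, from -0.52 to -0.20 with EV, and 6 of 7 were called lower with EV and 1 of 7 with EF, beside 13.4 and 10.1% of all genes. The call of PSMB1 with EV held under all 22 alternatives, whereas those of PSMB3, PSMB4, PSMB5, PSMB6 and PSMB7 were lost without the first WT library. PSMB4 read 280 and 254, 267 and 233, and 199 and 196 CPM in no ARID1A, WT and ΔIDR1b with EV, and 268 and 253, 216 and 225, and 185 and 204 CPM with EF. Its ΔIDR1b libraries were the lowest of each vector, and PSMB4 had the largest called fall of the beta class against no ARID1A (-0.44 ± 0.10, adjusted p = 0.000829). PSMB3 had the largest against WT (-0.52 ± 0.13, adjusted p = 0.00334). Its values were 79.0 and 67.8, 90.5 and 69.7, and 60.1 and 52.0 CPM with EV, and 59.8 and 67.2, 81.1 and 77.4, and 53.4 and 62.6 CPM with EF. The WT libraries of PSMB3 differed among themselves, and without the first of them the fall was -0.32 (adjusted p = 0.173), as against -0.42 (adjusted p = 0.0876) without the second ΔIDR1b library. Of the 3 constitutive catalytic genes, PSMB5 and PSMB6 did not pass against no ARID1A, whereas both passed against WT (-0.37 and -0.33), as did PSMB7 (-0.36). These 3 calls were lost under 4, 6 and 3 of the 22 alternatives, with adjusted p up to 0.473, 0.252 and 0.149.

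**Figure D3:**
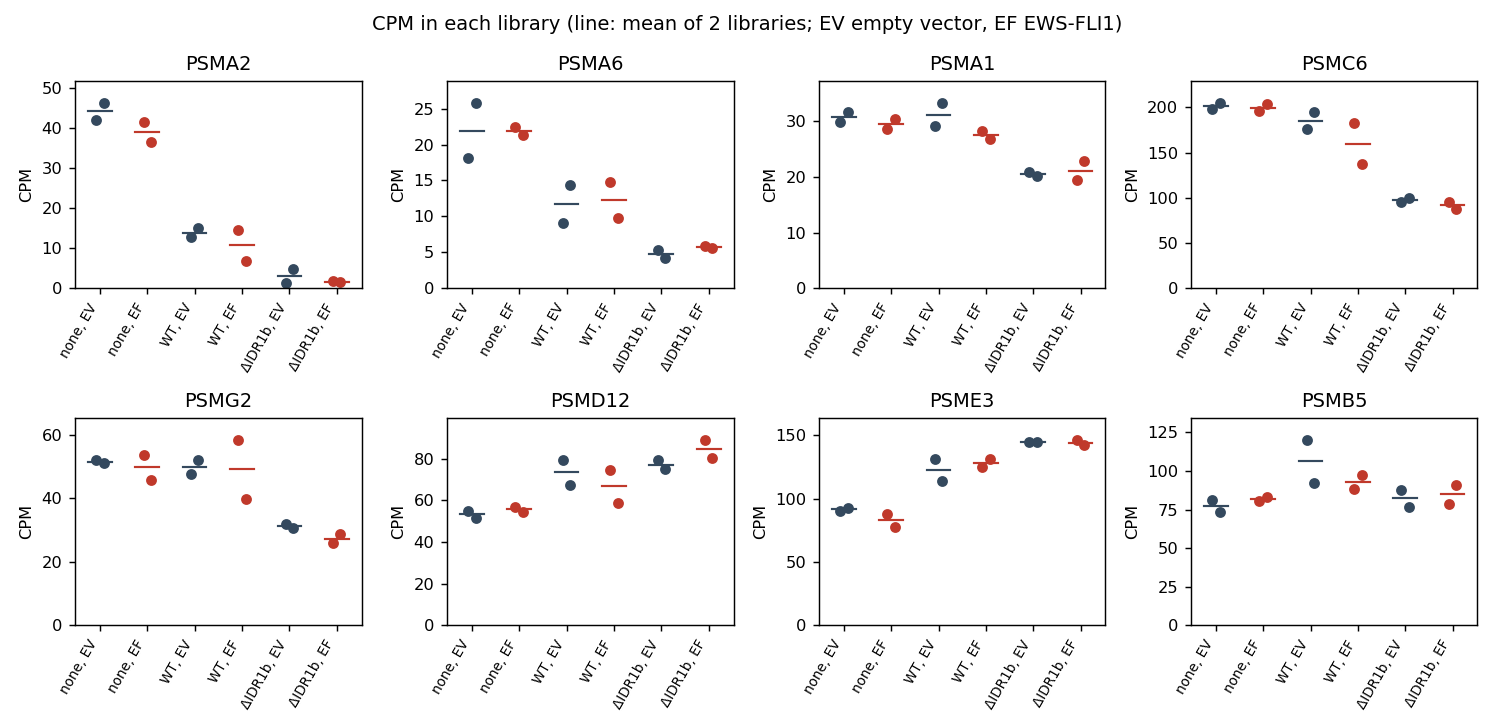
CPM of 8 PSM genes in each of the 12 libraries by ARID1A state and vector (none, no ARID1A), with lines for the mean of 2 libraries and axes from 0. PSMA2, PSMA6 and PSMC6 are lowest with ΔIDR1b, PSME3 and PSMD12 are lowest without ARID1A, and the vectors of a state lie close together.

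Among the ATPases of the regulatory particle, PSMC6 had the only called difference against no ARID1A with ΔIDR1b. PSMC6 read 198 and 205, 176 and 195, and 95.2 and 100.3 CPM in no ARID1A, WT and ΔIDR1b with EV, and 196 and 203, 183 and 137, and 95.5 and 88.2 CPM with EF. The 4 ΔIDR1b libraries lay below all others, and PSMC6 was 2.06-fold lower than in no ARID1A (-1.04 ± 0.11, adjusted p = 8.17e-09) and 1.90-fold lower than with WT (-0.92 ± 0.11, adjusted p = 3.16e-07). None of its exonic bases is shared with another gene, and 70.8% of them lie outside exons of coding transcripts. The other ATPases ranged from -0.14 to 0.13 in log2 fold change against no ARID1A with EV where not called, and PSMC1 fell against WT (-0.44, adjusted p = 0.00521, but 0.0675 without the first ΔIDR1b library).

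The non-ATPase subunits went both ways against no ARID1A. PSMD12, a lid subunit, read 55.1 and 51.4, 79.2 and 67.6, and 79.2 and 75.1 CPM in no ARID1A, WT and ΔIDR1b with EV, and 56.9 and 54.6, 74.8 and 58.7, and 89.0 and 80.3 CPM with EF. Its no-ARID1A libraries were the lowest of each vector, and it rose with ΔIDR1b (0.54 ± 0.12, adjusted p = 0.000955). PSMD1 rose as well (0.38, adjusted p = 0.00442), from 97.5 and 90.3 CPM in no ARID1A to 120 and 125 CPM with ΔIDR1b, with 114 and 115 CPM in WT, a call lost without the second library of either group compared (adjusted p up to 0.0899). With EF, PSMD1 read 89.8 and 94.6, 136 and 121, and 118 and 123 CPM, so that ΔIDR1b and WT overlapped while no ARID1A was lowest. PSMD6, another lid subunit, read 114 and 107, 108 and 105, and 75.9 and 84.6 CPM with EV, and 118 and 123, 121 and 99.5, and 71.98 and 86.3 CPM with EF. PSMD6 was lowest in the ΔIDR1b libraries and fell against no ARID1A (-0.46 ± 0.11, adjusted p = 0.00201) and WT (-0.41 ± 0.11, adjusted p = 0.00832). Without the first ΔIDR1b library these were -0.38 (adjusted p = 0.0586) and -0.33 (adjusted p = 0.134), and without the first WT library the latter was -0.38 (adjusted p = 0.0712). The lid subunit PSMD11 also fell (-0.31 and -0.39), but the call against no ARID1A was lost without any 1 of the 4 libraries compared (adjusted p up to 0.156) and that against WT without the second library of either group (adjusted p up to 0.0964). The most abundant regulatory gene per kilobase, PSMD4, had 174 and 159, 192 and 176, and 168 and 150 CPM with EV, and 171 and 175, 174 and 176, and 162 and 180 CPM with EF, and was called in no contrast, with overlapping ΔIDR1b and no-ARID1A libraries.

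Among assembly chaperones, 1 of 3 of the regulatory particle and 2 of 4 of the core fell with ΔIDR1b against no ARID1A (EV). Of all genes, 16.8% were lower in this contrast. PSMD5 and PSMD10 did not pass in it. PSMD9, which holds an ATPase module of the regulatory particle during assembly and has 68.3% of its coding bases shared with another gene, read 22.8 and 19.97, 18.3 and 18.5, and 11.8 and 10.5 CPM in no ARID1A, WT and ΔIDR1b with EV, and 18.2 and 16.1, 15.2 and 16.6, and 12.5 and 9.11 CPM with EF. It was lowest with ΔIDR1b and fell against no ARID1A (-0.94 ± 0.18, adjusted p = 0.000122) and WT (-0.72 ± 0.18, adjusted p = 0.00356), with -0.65 (adjusted p = 0.0607) against WT when the second ΔIDR1b library was left out. PSMG2, which forms a pair with PSMG1 to build the alpha ring, read 52.0 and 51.0, 47.8 and 51.9, and 32.0 and 30.5 CPM with EV, and 53.6 and 45.8, 58.3 and 39.8, and 25.8 and 28.8 CPM with EF. The no-ARID1A and WT libraries of PSMG2 overlapped and all ΔIDR1b libraries lay below them (-0.72 ± 0.15, adjusted p = 0.000209, against no ARID1A and -0.67 ± 0.15, adjusted p = 0.000808, against WT). PSMG4 fell too (-0.45, adjusted p = 0.00659, against no ARID1A, but up to 0.0929 without the first library of either group), while PSMG1 and PSMG3 did not pass. POMP, the maturation factor of the beta ring outside the PSM names, fell by 0.60 on the log2 scale (adjusted p = 0.000216), and PAAF1 did not pass.

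PSME3, a nuclear activator ring that works without ubiquitin, had the largest called rise of the members with ΔIDR1b against no ARID1A, with either vector. It read 90.6 and 92.6 CPM in no ARID1A, 132 and 114 with WT and 145 and 145 with ΔIDR1b (EV), and 88.1 and 77.7, 125 and 132, and 146 and 142 CPM with EF. The no-ARID1A libraries were lowest and the ΔIDR1b libraries highest in each vector. PSME3 was 1.58-fold higher with ΔIDR1b than without ARID1A (0.66 ± 0.11, adjusted p = 7.4e-06). PSME4 rose as well (0.50 ± 0.10, adjusted p = 0.000276), and the inhibitor PSMF1 did not pass in these contrasts.

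The core was then set against the regulatory particle within each library, as the mean log2 CPM (prior count 2) of the 14 core genes minus that of the 17 regulatory genes. With EV it stood at -0.16 and -0.10 in no ARID1A, -0.36 and -0.33 with WT and -0.67 and -0.62 with ΔIDR1b, and with EF at -0.15 and -0.19, -0.29 and -0.43, and -0.61 and -0.63. The 3 states did not overlap in either vector. The difference between ΔIDR1b and no ARID1A was -0.51 (pooled SD 0.04) with EV and -0.45 (0.02) with EF, that between WT and no ARID1A -0.21 (0.03) and -0.19 (0.07), and that between ΔIDR1b and WT -0.30 (0.03) and -0.26 (0.07).

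Without PSMA1, PSMA2 and PSMA6, whose coding bases are mostly shared, the core stood above the regulatory particle in all 12 libraries, by 0.22 to 0.36. The differences between states then came to 0.02, -0.06 and -0.07 with EV and 0.05, 0.02 and -0.02 with EF (WT against no ARID1A, ΔIDR1b against no ARID1A and ΔIDR1b against WT). With medians in place of means over all members they were 0.14, 0.02 and -0.12, and 0.11, 0.26 and 0.15. The differences between states in the means thus shrank to between -0.07 and 0.05 without these 3 genes. Leaving out the largest falls of the core shrinks such a difference by construction. For ΔIDR1b against no ARID1A with EV, the log2 fold changes were -3.83 for PSMA2, -2.19 for PSMA6 and -0.59 for PSMA1. Counted by calls without them, 0 core genes were higher and 4 of 11 lower for ΔIDR1b against no ARID1A with EV (5 had an unadjusted p under 0.05), and 7 of 11 lower against WT. For the regulatory particle the same counts were 2 higher and 3 lower, and 0 higher and 6 lower, of 17. Of all genes, 16.4% were higher and 16.8% lower against no ARID1A, and 11.1% higher and 13.4% lower against WT. The difference between these counts was not tested.

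**Figure D4:**
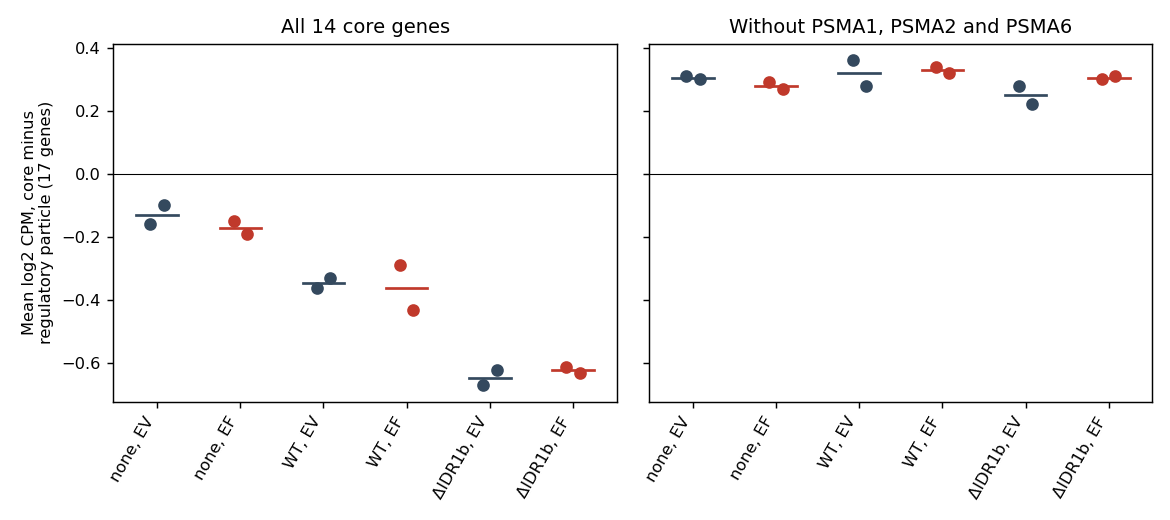
Mean log2 CPM of core genes minus that of the 17 regulatory genes in each library, by state and vector, with all 14 core genes (left) and without PSMA1, PSMA2 and PSMA6 (right), lines marking group means. The left panel steps down from between -0.19 and -0.10 in no ARID1A to between -0.67 and -0.61 with ΔIDR1b, and the right panel stays between 0.22 and 0.36.

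Since PSMA2, PSMA6 and PSMC6 all have a large part of their counted bases outside coding transcripts, the members were described by that share. PSMG2, at 84.2%, and PSMD6, at 80.9%, had a large share as well, and both fell with ΔIDR1b. For ΔIDR1b against no ARID1A with EV the median log2 fold change was 0.00 for the 9 members with up to 25% of counted bases outside coding transcripts, -0.04 for the 17 between 25 and 50% and -0.25 for the 19 above 50%. Over all genes with a value it was 0.19 (7503 genes), 0.01 (3890 genes) and -0.10 (2450 genes), so the medians had the same order in the whole table. Of the 14 members that fell, 9 had more than 50% outside, as did 1 of the 4 that rose (PSMD1, 78.9%). Over all genes with a value, 639 of the 2450 above 50% were called lower and 295 higher. Of the 7503 up to 25%, 853 were called lower and 2042 higher, so calls leaned the same way in the whole table. Across the 45 members Pearson's r between that share and the log2 fold change was -0.386 and Spearman's rho -0.328, as a description over genes that share the same libraries. Among members with a high share, PSMD14, at 78.6%, and PSMC2, at 64.5%, were not called in this contrast. The part of RNA from introns in these falls was not tested, since the tables hold 1 count per gene.

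**Figure D5:**
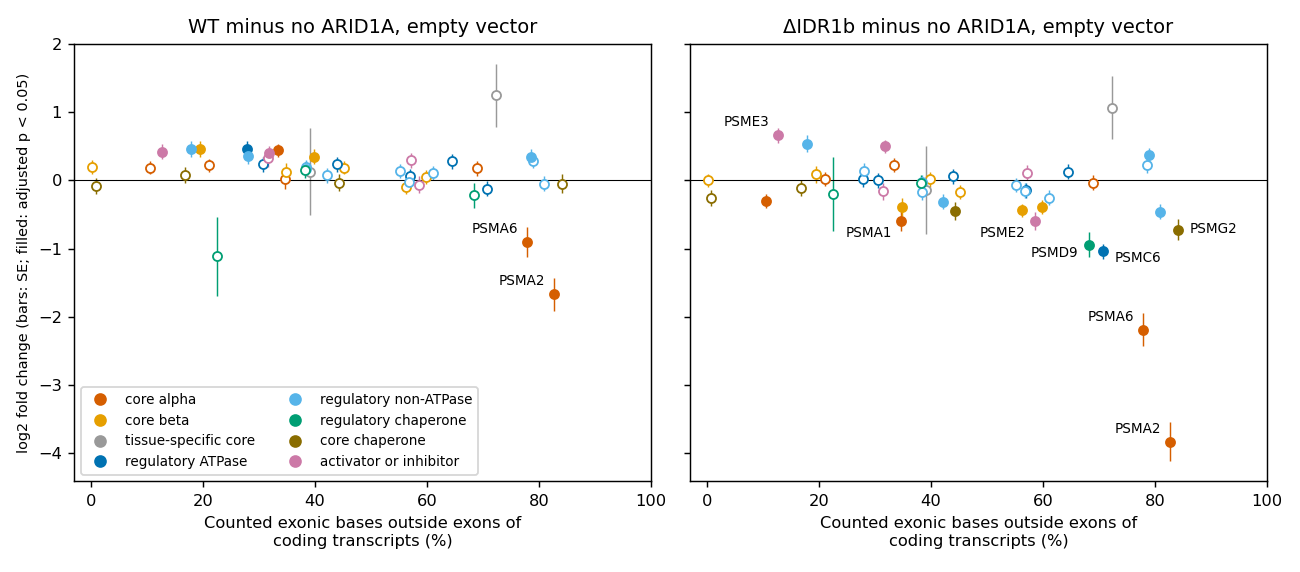
Log2 fold change (bars, SE) of the 45 members against the percentage of their counted exonic bases that lie outside exons of coding transcripts, for WT (left) and ΔIDR1b (right) against no ARID1A with EV, filled at an adjusted p under 0.05. PSMA2 and PSMA6 are the lowest filled points in both panels, at 82.7 and 77.9%, and PSME3, at 12.7%, is the highest filled point on the right.

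No member passed the test for an effect of EWS-FLI1 in any ARID1A state. By edgeR, 0 of 45 passed in no ARID1A, WT and ΔIDR1b, beside backgrounds of 0.0442, 0.221 and 0.172% of all genes, and 0, 1 and 1 had an unadjusted p under 0.05. These members were PSMC1 in WT (-0.25, adjusted p = 0.736) and PSMA2 in ΔIDR1b (-0.85, adjusted p = 0.906). DESeq2 also called 0 in each state. In the average over the states edgeR and DESeq2 called 0, with 2 unadjusted p under 0.05 by edgeR and a background of 0.466%. PSMA2 was called there without the first WT library with EF (-0.68, adjusted p = 0.00666) and without the first ΔIDR1b library with EV (-0.68, adjusted p = 0.0371). It was also called there with the replicate number as a block within each vector (-0.48, adjusted p = 0.0378, and adjusted p = 0.0344 with the length trend removed as well). The difference between core and regulatory particle moved by -0.04, -0.02 and 0.02 with EF in no ARID1A, WT and ΔIDR1b, against pooled SDs of 0.04, 0.07 and 0.03. Without the first WT library with EF, PSMA2 (-1.02, adjusted p = 0.0352) and PSMC6 (-0.44, adjusted p = 0.0249) were called in WT.

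The interactions asked whether EWS-FLI1 acted differently between states. For WT against no ARID1A, ΔIDR1b against no ARID1A and ΔIDR1b against WT, edgeR called 0 members, beside backgrounds of 0.0245, 0.0196 and 0% of all genes, with 1, 1 and 0 unadjusted p under 0.05. DESeq2 called 0 in each. The smallest and largest log2 interaction ran from -1.39 to 0.27 for ΔIDR1b against no ARID1A. The value of -1.39 came from the immune or tissue-specific core genes, which had few counts. Genes of the constitutive core ran from -0.67 to 0.27 and those of the regulatory particle from -0.18 to 0.14.

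Partners of the proteasome outside the PSM names were read from fixed lists. Of 9 docked factors, 1 rose and 4 fell with ΔIDR1b against no ARID1A with EV (median -0.01), beside 16.4% higher and 16.8% lower of all genes. The ubiquitin ligase UBE3C rose (0.94, adjusted p = 1.05e-08), also with WT (0.54, adjusted p = 0.000493). The zinc finger protein ZFAND5 (-0.97), the thioredoxin-like TXNL1 (-0.87), the small regulatory subunit SEM1 (-0.78) and PITHD1 (-0.69) fell, with adjusted p up to 6.49e-05. The same 4 fell against WT for both vectors.

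Among the ubiquitin and shuttle genes, UBB, a ubiquitin precursor gene, read 337 and 316, 359 and 300, and 184 and 228 CPM in no ARID1A, WT and ΔIDR1b with EV, and 304 and 345, 195 and 340, and 202 and 170 CPM with EF. The ΔIDR1b libraries were the lowest with EV, and UBB fell against no ARID1A (-0.67 ± 0.15, adjusted p = 0.000654) and WT (-0.68 ± 0.15, adjusted p = 0.000932). With EF the WT and ΔIDR1b libraries of UBB overlapped, although the fall was called (-0.53, adjusted p = 0.0116). RPS27A, which encodes ubiquitin fused to a ribosomal protein, fell as well (-0.49, adjusted p = 0.000476, against no ARID1A with EV). The shuttle UBQLN2 (0.86, adjusted p = 1.32e-06) and the activating enzyme UBA1 (0.26, adjusted p = 0.0261) rose in the same contrast.

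In the list of 8 genes of the NFE2L1 pathway, 3 rose and 0 fell with WT against no ARID1A with EV (4 had an unadjusted p under 0.05 by edgeR), beside 6.50% higher and 5.19% lower of all genes. With ΔIDR1b against no ARID1A with EV, 1 rose and 2 fell, beside 16.4 and 16.8% of all genes. The 3 rises with WT were the small MAF genes MAFG (0.97, adjusted p = 1.11e-06), MAFF (0.93, adjusted p = 0.000272) and MAFK (0.55, adjusted p = 0.00415). MAFF read 20.3 and 15.5, 36.8 and 31.2, and 16.1 and 18.4 CPM in no ARID1A, WT and ΔIDR1b, so ΔIDR1b libraries lay with those of no ARID1A, and MAFF was lower with ΔIDR1b than with WT (-0.98, adjusted p = 5.17e-05). MAFG stayed high with ΔIDR1b (0.86 against no ARID1A, adjusted p = 1.22e-06). NFE2L1 itself had 0.18 (adjusted p = 0.307) with WT and -0.10 (adjusted p = 0.53) with ΔIDR1b.

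Promoters are shown for 4 members that moved, PSMA2 next to MRPL32, PSMC6, PSMB3 and PSMD12, with the part of the 250 bases upstream of the start that lies outside exons (RefSeq, GRCh38.p14, 5′ to 3′ on the gene's strand). Capitals mark matches to motifs searched on both strands.
PSMA2, chr7:42932215-42932375, minus strand: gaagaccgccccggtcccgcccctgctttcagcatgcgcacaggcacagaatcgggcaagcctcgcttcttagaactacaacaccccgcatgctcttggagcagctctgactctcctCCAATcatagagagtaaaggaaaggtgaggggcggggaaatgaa
PSMC6, chr14:52706950-52707177, plus strand: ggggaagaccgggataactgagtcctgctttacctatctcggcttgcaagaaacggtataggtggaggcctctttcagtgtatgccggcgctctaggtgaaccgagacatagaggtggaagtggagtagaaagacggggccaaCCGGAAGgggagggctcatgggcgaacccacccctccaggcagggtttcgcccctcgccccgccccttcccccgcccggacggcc
PSMB3, chr17:38752491-38752740, plus strand: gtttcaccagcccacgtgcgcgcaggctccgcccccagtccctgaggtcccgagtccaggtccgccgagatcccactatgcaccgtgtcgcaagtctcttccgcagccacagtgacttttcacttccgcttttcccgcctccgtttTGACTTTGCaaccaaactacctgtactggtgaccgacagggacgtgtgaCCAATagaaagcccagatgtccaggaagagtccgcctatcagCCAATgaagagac
PSMD12, chr17:67366606-67366827, minus strand: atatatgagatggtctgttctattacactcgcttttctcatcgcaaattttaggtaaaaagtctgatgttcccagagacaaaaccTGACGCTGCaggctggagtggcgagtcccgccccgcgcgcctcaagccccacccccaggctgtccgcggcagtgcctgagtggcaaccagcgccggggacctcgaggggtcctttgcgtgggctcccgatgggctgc
The capitals are a CCAAT box in PSMA2, an ETS site (CCGGAAG) in PSMC6, the core of an antioxidant response element (TGACNNNGC) and a pair of CCAAT boxes in PSMB3, and one antioxidant response element core in PSMD12. PSMD12 also has an ETS site at position -8 from its start, outside the stretch shown. The stretch of PSMA2 fills most of the gap to MRPL32.

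The same letters were counted in windows of 300 bases (250 before to 50 after the start) for 42 member genes with 51 windows, beside 35116 windows of all genes. TGACNNNGC was in 29.4% of member windows and 13.3% of all, CCAAT in 39.2 and 34.6%, and CCGGAAG in 29.4 and 10.3%. GGAAGGAA, a pair of the GGAA units that EWS-FLI1 is known to bind, was in 1.96% of member windows (PSMD7 alone) and 3.67% of all. The core of an interferon response element, GAAA repeated after any 2 bases, was in 13.7 and 3.57%, with PSMB8, PSMB10, PSME1 and PSME2 among its 7 member genes. CCGGAAG and GGAAGGAA can share letters where they overlap. A match is a description of these letters, not of binding.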

How the data were processed

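PolyA RNA-seq libraries of 6 groups, 2 each, were analysed from gene counts that the authors made with featureCounts 2.0.1 on GENCODE release 41 (GRCh38.p13), per the file headers. Read pairs were summed over the exons of a gene name without a strand option, and pairs overlapping several genes or mapping to several places were not counted, also per the file headers. STAR, SAMtools and edgeR are named in the submitters' processing notes. Libraries held 11702251 to 14445379 counts, and 3 counts correspond to 0.208 to 0.256 CPM. Intervals and limits of this kind cover counting error only, since the reads carry no molecular identifiers.

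From these counts, edgeR 4.0.16 (R 4.3.3) fitted the quasi-likelihood model to all 12 libraries with 1 mean per group, TMM scaling and its default filter (minimum count 10, minimum total 15). Of 60645 gene names, 20377 were tested in 13 contrasts, 2-sided, and a gene counted as called where its p, adjusted over all of them by Benjamini and Hochberg, was under 0.05. The biological coefficient of variation was 10.1%. Errors beside log2 fold changes are standard errors. The scripts were tested on simulated data. DESeq2 1.42.0, other scalings and filters, the replicate number as a block, a length correction and leaving out each library were alternatives. Overlaps of exons came from the coordinates in the tables, and coding transcripts from GENCODE release 29, on the same build. Promoters came from RefSeq (GRCh38.p14).

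Values per library are given for the immune, activator and tissue-specific members, for the called member with the largest rise and fall of each class in the 2 contrasts of ΔIDR1b with EV, and for the highest and lowest core and regulatory gene per kilobase. PSMA1, UBB, MAFF and MRPL32 were described in addition after their values were seen. The members and lists were chosen with earlier results of these data known. No per-gene protein sequence was used here, and some genes of the partner lists are not reported here.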

Additional observations from a re-analysis of the deposited data

How the results depend on the processing

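Of the 91 calls of members between ARID1A states, 36 held under all 22 alternatives, 55 were lost under at least one and 0 reversed. Leaving out 1 library at a time gave 1 to 16 called members for WT against no ARID1A, 13 to 20 for ΔIDR1b against no ARID1A and 9 to 24 for ΔIDR1b against WT with EV, and 6 to 12, 12 to 22 and 5 to 13 with EF. For EWS-FLI1 it gave 0 to 0 without ARID1A, 0 to 2 in WT, 0 to 0 in ΔIDR1b, 0 to 1 on average and 0 to 0 for the interactions. A group left with 1 library was assumed to vary like the others. The core minus regulatory difference ran from -0.24 to -0.18, -0.54 to -0.48 and -0.33 to -0.27 with EV, -0.26 to -0.12, -0.47 to -0.43 and -0.33 to -0.19 with EF, and from -0.07 to -0.01, -0.09 to 0.05 and 0 to 0.05 for EWS-FLI1 in the 3 states.

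Samples with the same number deviated together within a vector (r 0.0974 to 0.385 over 11257 genes) and not between vectors (-0.204 to -0.00808). With EF every r lay between 0.137 and 0.385, but a contrast holds only 2 such pairs and the labels name nothing that a number shares, so the main test has no block. For WT against no ARID1A with EF, 10 members were called with the replicate block over all libraries, 17 with the block within each vector and 16 with the crossed block. The replicate block within each vector called 1 member (PSMA2) in the average effect of EWS-FLI1, also with the length trend removed. That block with the length trend removed called 20 for WT against no ARID1A with EV, and with EF 16 for WT against no ARID1A and 22 for ΔIDR1b against WT. The length trend removed alone gave 16 for WT against no ARID1A with EF, and a fit to only the libraries compared gave 4 for ΔIDR1b against WT with EF, with fewer samples to estimate the spread. The causes of these shifts were not tested.

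With medians, the core minus regulatory differences were 0.14, 0.02 and -0.12 with EV, 0.11, 0.26 and 0.15 with EF and -0.10, -0.12 and 0.14 for EWS-FLI1 in the 3 states. With the length trend removed they were -0.15, -0.40 and -0.25 with EV and -0.12 and -0.33 for WT and ΔIDR1b against no ARID1A with EF. Without the mostly shared members, an alternative chosen after seeing the data, they were 0.02, -0.06 and -0.07, then 0.05, 0.02 and -0.02, and 0.06 for EWS-FLI1 in ΔIDR1b. The core to regulatory ratio of levels was 1.72 per unshared kilobase and 2.71 without those members.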

Other observations

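The tables also hold 42 gene names of PSM pseudogenes, copies to which reads of the parent gene could map. Only 2 of them had at least 120 counts over the 12 libraries, PSMC1P1 with 362 and PSMD10P1 with 288. PSMA2P1, PSMA2P2 and PSMA2P3 had 2, 6 and 0 counts, and PSMA6P1 had 73. Pairs that mapped to several places were left out of the counts, so reads shared equally by a member and its copy are in neither value.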
